A study of Mus musculus with 2 samples.

Results

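The regions described here are weak sites of DNase I hypersensitivity that both thymus libraries detected but that neither library kept in its shorter peak list. The shorter list is called the main list here, and each library also came with a longer one. A peak of the longer list was taken if it overlapped no main-list peak of either library and overlapped another such peak in the longer list of the other library, on the autosomes, with an overlap of 1 bp or more. The members were thus chosen by peak calls on the signal of these same libraries, and their signal and q-values are a description without a test. By this rule 8037 of 75118 autosomal longer-list peaks of replicate 1 were members (10.7%), and 8031 of 76819 of replicate 2 (10.5%). Overlapping members of the libraries were joined into 7932 loci, of which 7774 (98.0%) held 1 peak of each library.

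Thymus was taken from female B6CASTF1/J mice, hybrids of the B6 and CAST strains, at an age of 18 to 20 months. The 2 libraries are numbered as biological replicates of 1 group, carry the same donor record and different biosample records, and nothing states whether they came from separate animals. Their spread may therefore be technical, and an exact permutation test over 2 pairs could not give a p below 0.5. No younger, male or other tissue was compared. All files use the mm10 build, and sequence is that of the GRCm38 reference, which is C57BL/6J, so that CAST alleles are not shown. The libraries differed in the signal of sites with the CTCF sequence, and those values stand with the results that rest on them.

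The enzyme DNase I cuts DNA where nucleosomes are displaced, so clusters of cuts mark promoters, enhancers and insulators that are bound by transcription factors. A factor sitting on its site protects a short stretch within such a cluster, which is called a footprint. The thymus is mostly made of developing T cells, or thymocytes, supported by epithelial, myeloid, B and stromal cells that are fewer in number. In whole tissue, a site open in few cells and a site little opened in many cells cannot be told apart. By main-list promoter peaks in both libraries, the tissue showed all 9 T cell markers (Cd3e, Cd3g, Cd8a, Cd8b1, Lck, Ptcra, Rag1, Bcl11b and Tcf7), 2 of 6 epithelial markers (Aire and Ccl25), 1 of 4 B cell markers (Ebf1) and 0 of 4 myeloid markers. Over the longer lists of the same cell types such a peak stood at 27 of 31 T cell and thymocyte genes, 7 of 20 genes of thymic epithelium, 6 of 15 B cell genes and 4 of 24 myeloid and dendritic genes.

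The sequences of 10 loci are shown because they carry the strongest signals, the clearest shared footprints or the T cell and B cell examples discussed further on. Capitals mark bases of a replicate 1 footprint that overlapped a footprint of replicate 2, except in the 3 loci near Pik3ip1, Smim24 and Vgll4, where they mark the match to the consensus of CTCF, the factor of insulators and chromatin loops. Intervals are those called in replicate 1.
E2f2 upstream, chr4:136160234-136160380, plus strand: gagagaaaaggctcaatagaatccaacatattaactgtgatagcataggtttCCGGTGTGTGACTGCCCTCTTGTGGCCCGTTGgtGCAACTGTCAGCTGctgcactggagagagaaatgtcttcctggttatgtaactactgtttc
Thy1 far upstream, chr9:44020184-44020282, plus strand: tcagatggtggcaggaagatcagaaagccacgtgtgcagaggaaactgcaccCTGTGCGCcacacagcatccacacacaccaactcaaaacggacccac
Thy1 middle upstream, chr9:44029764-44029863, plus strand: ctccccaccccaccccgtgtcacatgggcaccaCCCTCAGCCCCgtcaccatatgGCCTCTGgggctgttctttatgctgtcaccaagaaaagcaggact
Thy1 near upstream, chr9:44031285-44031400, plus strand: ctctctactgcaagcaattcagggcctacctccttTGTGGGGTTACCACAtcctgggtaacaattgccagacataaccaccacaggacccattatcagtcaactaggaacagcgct
Tnf promoter, chr17:35201995-35202120, plus strand: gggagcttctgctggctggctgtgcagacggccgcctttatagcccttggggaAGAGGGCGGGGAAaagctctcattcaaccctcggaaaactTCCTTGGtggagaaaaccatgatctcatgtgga
Wnt1 promoter, chr15:98789601-98789780, plus strand: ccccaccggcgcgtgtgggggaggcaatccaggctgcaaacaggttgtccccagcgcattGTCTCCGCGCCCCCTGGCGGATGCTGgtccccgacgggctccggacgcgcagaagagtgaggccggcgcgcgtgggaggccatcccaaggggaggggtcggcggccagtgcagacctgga
Cd22 promoter, chr7:30880277-30880371, plus strand: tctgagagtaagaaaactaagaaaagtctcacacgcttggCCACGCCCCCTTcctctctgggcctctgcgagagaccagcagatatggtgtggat
Pik3ip1 region, chr11:3314173-3314320, plus strand: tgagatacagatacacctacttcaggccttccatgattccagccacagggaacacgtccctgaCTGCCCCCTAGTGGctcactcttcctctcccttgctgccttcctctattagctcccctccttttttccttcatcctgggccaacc
Smim24 region, chr10:81408892-81409088, plus strand: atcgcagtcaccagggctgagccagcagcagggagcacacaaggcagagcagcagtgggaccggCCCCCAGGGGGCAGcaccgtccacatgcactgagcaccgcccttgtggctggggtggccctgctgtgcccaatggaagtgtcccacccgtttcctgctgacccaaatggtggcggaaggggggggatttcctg
Vgll4 region, chr6:114928566-114928740, plus strand: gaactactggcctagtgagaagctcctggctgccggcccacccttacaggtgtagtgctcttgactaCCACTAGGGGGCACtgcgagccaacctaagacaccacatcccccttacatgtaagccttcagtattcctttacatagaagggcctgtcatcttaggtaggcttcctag

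The members were weak and narrow, and both libraries ranked them alike. The median member had a signal, in deposited units, of 0.573 in replicate 1 and of 0.528 in replicate 2, against 2.09 and 1.76 for the 39126 and 39129 main-list peaks that overlapped a main-list peak of the other library. The middle 50% of the members lay between 0.438 and 0.752 in replicate 1 and between 0.398 and 0.718 in replicate 2, and the whole range was 0.116 to 2.80 and 0.104 to 2.64. Signals were whole multiples of 1 step per library, and the median member held 64.0 and 81.0 steps, which corresponds to a counting error of 12.5% and 11.1% where each step is taken as a separate cut. Members had a median width of 140 bp in both libraries, against 220 bp in the main list, and covered 1.19 and 1.22 Mb, against 9.11 and 9.29 Mb.

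The label of weak peaks held for the set and not for every member. Signals exceeded 1 in 698 members (8.68%) of replicate 1 and 661 (8.23%) of replicate 2. Only 5 and 23 members exceeded the median of the main list. At or under the highest member lay 24420 and 25629 main-list peaks, but only 808 and 1170 lay at or under the members' median. Signal alone did not fully separate the lists. Longer-list peaks of 1 library alone here means those that overlapped no main-list peak and no such peak of the other library. They were weaker still than the members, with medians of 0.438 and 0.417 over 14379 and 15173 peaks. Of them, 15.8% and 12.9% held bases with a listed q-value in the other library, so not all were absent there.

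**Figure D1:**
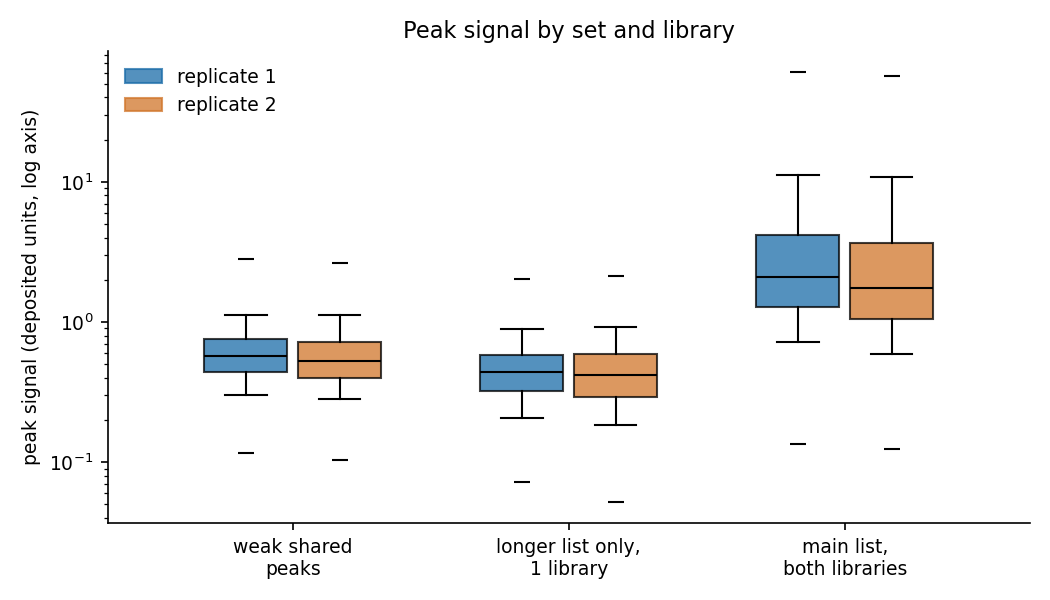
Peak signal on a log axis for the weak shared peaks (left), the longer-list peaks of 1 library alone (middle) and the main-list peaks of both libraries (right), with replicate 1 in blue and replicate 2 in orange. Boxes give the quartiles and the median, whiskers the 5th and 95th percentiles and dashes the lowest and highest peak; the members' medians of 0.573 and 0.528 lie below the main-list medians of 2.09 and 1.76, and the ranges overlap.

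Membership was commoner among stronger candidates. Of the longer-list peaks that overlapped no main-list peak, 22416 in replicate 1 and 23204 in replicate 2, the members made up 35.9% and 34.6%. This share was 17.2% and 15.7% in the weakest of 4 equal groups of candidates by signal, and 54.3% and 47.0% in the strongest group. At the edge of the rule, 12 and 8 members lay under 20 bp from a main-list peak, with median signals of 0.702 and 0.607. Just outside it, 83 and 75 longer-list peaks overlapped main-list peaks by 1 to 19 bp, with medians of 0.564 and 0.450.

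Across the 7932 loci the signals of the libraries correlated with a Spearman rho of 0.862 and a Pearson r of 0.870 on log2 values, against 0.922 and 0.940 across 36500 main-list pairs, which span a wider range. Loci share library and depth and are not replicates. After subtraction of the median log2 ratio of -0.08 (replicate 2 over replicate 1), the SD of the log2 ratio was 0.30 in the members and 0.44 in the main list. 99.8% of the loci agreed within 2-fold. Beyond 2-fold, 12 loci were higher in replicate 1 and 4 in replicate 2. The rule keeps loci in both longer lists and out of both main lists, which tends to restrict how far their signals can differ. The agreement within 2-fold and the lower SD are therefore a description only. The rule also fixes that the intervals overlap. The median overlap was 100 bp, and 19 loci had identical ends.

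The loci that differed most lay near unrelated genes. Higher in replicate 1 were a locus 6168 bp upstream of Tmem18, which encodes a membrane protein of the nuclear envelope, with signals of 1.12 in replicate 1 and 0.437 in replicate 2, and a promoter locus of the fucosyltransferase gene Fut10, with 0.689 and 0.274. A locus 1055 bp inside Ebf1, which encodes a factor that specifies B cells, had 0.787 and 0.313. Higher in replicate 2 were a locus 78412 bp upstream of S1pr1, whose receptor lets mature T cells leave the thymus, with 0.340 in replicate 1 and 0.718 in replicate 2, and a locus 14940 bp upstream of the oxysterol-binding protein gene Osbp2, with 0.322 and 0.678. The last of these loci lay in an intron of Itpr1, with Bhlhe40 as its nearest start site, and had 0.430 and 0.900. In all of these loci, in both directions, the library with the lower signal had the shorter peak. Near S1pr1, for example, it was 33 bp in replicate 1 against 190 bp in replicate 2.

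The q-values per base set the members further from the main list than their signal did. The lowest q-value in a member had a median of 0.00635 in replicate 1 and 0.00680 in replicate 2, against 3.18e-13 and 7.07e-12 in the main list, whose peaks all touched a base at 0.001 or lower. Of the members, 854 (10.6%) and 788 (9.81%) touched such a base as well, over a median stretch of 16 and 15 bp, against 216 and 220 bp in the main list. At 0.01 or lower the shares were 61.7% and 61.0%. The libraries coincided on few of the lowest values, since 101 loci (1.27%) reached 0.001 in both and 1431 in 1 library only, while 3139 (39.6%) reached 0.01 in both, which as a stricter rule would leave 3130.5 peaks per library on average. Signal and lowest q-value were weakly related across members, with a rank correlation of -0.18 and -0.26.

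The 5 loci with the lowest q-values in both libraries lay in different settings. The first lay 29128 bp downstream of the mitochondrial import gene Timm8a2, with signals of 1.33 and 0.972 in replicates 1 and 2 and q-values of 0.000337 and 0.000193. An intronic locus of Arid1b, which encodes a subunit of the BAF chromatin remodeller, had 0.886 and 1.06, and 4 footprints in each library. A locus 91928 bp from the sorting nexin gene Snx10 was weak, at 0.421 and 0.444, although its q-values were 0.000350 and 0.000463. Loci 18978 bp downstream of Traf1, an adaptor of TNF receptor signalling, and 20189 bp upstream of Stmn1, a microtubule regulator of dividing cells, had signals from 1.04 to 1.29. Some members were extreme in 1 library only. A replicate 2 member in the promoter region of Inafm2, named after its values were seen, lay 180 bp from a main-list peak and reached 8.22e-33 over 216 bp at or under 0.001, whereas the lowest value there in replicate 1 was 0.0242.

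The highest mean signal belonged to a locus 12103 bp upstream of E2f2, a transcription factor of the cell cycle, with 2.80 in replicate 1 and 1.71 in replicate 2 and q-values of 0.000865 and 0.000717. Upstream of Thy1, which encodes a surface glycoprotein of thymocytes, 3 loci at 12048, 13572 and 23161 bp from the start site were among the 10 of highest mean signal, the first 2 of them right after E2f2. Their signals were 2.05 and 2.34 at the nearest, 2.05 and 2.39 at the middle and 1.83 and 2.11 at the farthest, and their lowest q-values ran from 0.00830 to 0.0222, above the members' medians. Each of the 3 was higher in replicate 2 and lay 1898 to 3547 bp from a main-list peak.

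The other loci of highest signal stood near genes of several kinds. The Tnf locus had 1.68 in replicate 1 and 2.64 in replicate 2. Near Dnajb12, which encodes a chaperone partner of the endoplasmic reticulum, an exonic locus had 2.03 and 2.28, and another 28450 bp downstream of the start site had 1.75 and 2.41. A locus 5513 bp upstream of Akna, which encodes an AT-hook protein of lymphoid tissue, had 2.13 and 1.84, the Cxxc5 promoter region, of a zinc finger gene, had 1.95 and 1.97, and a locus 45622 bp downstream of the G protein regulator gene Rgs10 had 2.54 and 1.38. Of these 10 loci, that of Rgs10 differed most between the libraries.

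**Figure D2:**
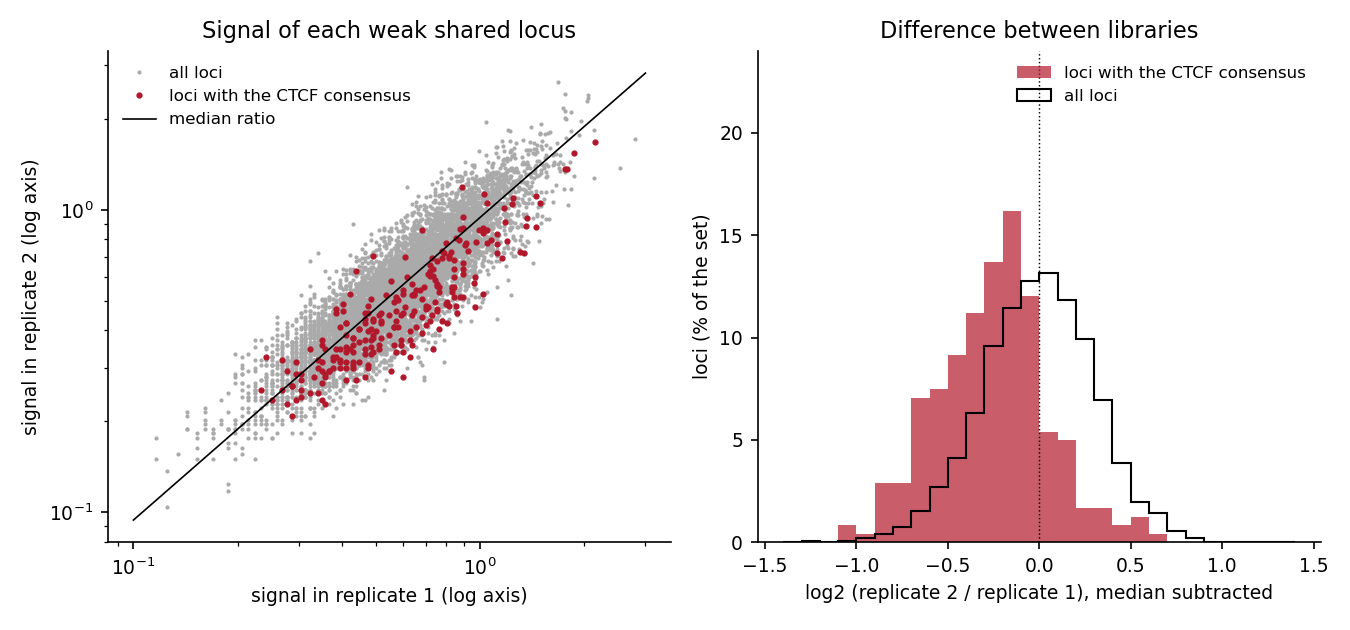
Left, signal of each of the 7932 loci in replicate 2 against replicate 1 on log axes, with the line of the median ratio. Right, log2 ratio after subtraction of the median, as a share of the loci with the CTCF consensus (red, 241 loci) and of all loci (black outline); 99.8% of all loci lie within 2-fold, and the loci with the consensus are shifted towards replicate 1.

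Members lay away from start sites more often than main-list peaks. By the peak's centre, 19.7% of the members of each library fell in promoters, that is within 1 kb of where a protein-coding transcript starts, against 43.0% and 43.1% of the main-list peaks. Introns held 38.6% and 38.7% of the members, against 25.5% and 25.4% in the main list, intergenic DNA 35.6% in each library, against 28.0%, and exons 6.05% and 6.03%, against 3.49% and 3.59%. The median distance to a start site was 14218 and 14125 bp, against 2862 and 2828 bp. In each class the members and the main list differed by more than the libraries did, although the rule, which asks for overlap, makes the libraries alike in position. The promoter share depended on its definition and on neighbours, at 10.04% within 500 bp of a start site, 30.4% within 2500 bp and 9.80% among members at least 1000 bp from every main-list peak.

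Signal among the members hardly followed position. Median signals were 0.555 and 0.509 in promoters, 0.600 and 0.548 in exons, 0.591 and 0.548 in introns and 0.546 and 0.509 between genes, in replicates 1 and 2. In the main list promoters stood out, with 3.56 and 3.07 against 1.66 and 1.38 in introns. The rule leaves out every peak that overlaps a main-list peak, which tends to limit the members' signal in each class. The contrast with the main list is therefore a description only. The comparison at equal signal, restricted to peaks within the members' own quartiles, used 4067 and 4077 members and 2209 and 3910 main-list peaks. There 20.1% and 19.6% of the members lay in promoters, against 28.7% and 24.6%, the median GC content was 53.7% and 53.8%, against 54.2%, and median widths were 142 bp, against 143 and 130 bp.

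**Figure D3:**
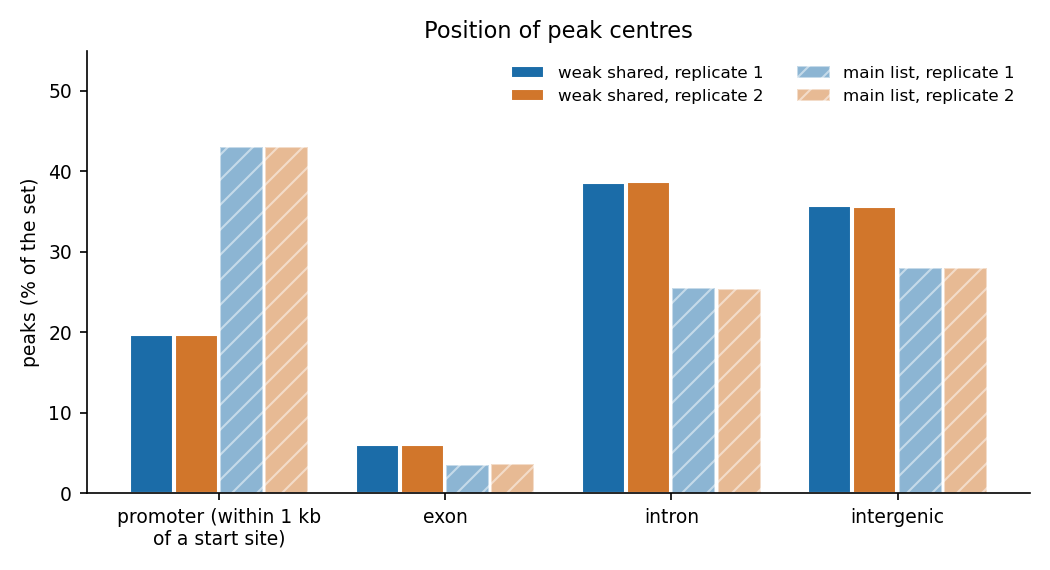
Share of peak centres in promoters, exons, introns and intergenic DNA, with the weak shared peaks in solid bars and the main-list peaks of both libraries in hatched bars. Promoters held 19.7% of the weak shared peaks and 43.0% and 43.1% of the main-list peaks.

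Many members lay beside main-list peaks. The gap to the nearest main-list peak of either library had a median of 2162 bp in replicate 1 and 2160 bp in replicate 2, and 40.5% and 40.6% of the members lay within 1 kb of such a peak, 69.2% within 10 kb and 4.83% beyond 100 kb. Of promoter members, 70.6% and 70.3% lay within 1 kb of a main-list peak, against 32.7% and 32.6% of intronic members and 32.7% and 33.1% of intergenic ones. To the same library alone, 37.6% and 37.7% of the members lay within 1 kb, while 46.1% and 52.2% of main-list peaks had another main-list peak of their library that close. Closeness to a main-list peak was thus not particular to the members, although these shares were not compared by signal or within position classes. The members were themselves scattered, with a median of 42669 bp to the nearest other locus and 24.8% within 10 kb of one. Density ran from 2.40 loci per Mb on chromosome 3 to 4.93 on chromosome 11, and from 17.2 to 24.5 loci per 100 main-list peaks.

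The members held less GC and fewer CpG than the main list. Their median GC content was 54.1% and 54.2%, against 57.5% in the main list, and the ratio of observed to expected CpG was 0.277 and 0.280, against 0.479 and 0.477. Windows with the composition of CpG islands made up 12.9% and 12.5% of the members, against 39.3% and 39.1%. Within promoters the CpG ratio was 0.491 and 0.502, against 0.796 and 0.789, between genes 0.240 and 0.243, against 0.305 and 0.308, and within introns 0.235 and 0.239, against 0.252 and 0.254. At equal signal it was 0.275 in each library, against 0.340 and 0.325. Members of which more than 50% was soft-masked as repeat came to 8.66% and 8.60%, against 2.67% and 2.61% in the main list and 16.2% and 12.3% of the longer-list peaks of 1 library alone. At equal signal the gap to the main list was smaller, at 8.41% and 8.14%, against 5.93% and 5.98%.

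Footprints were common in the members but less often shared. At least 1 footprint lay in 68.1% of the members of replicate 1 and 74.7% of replicate 2, against 91.9% and 93.7% of main-list peaks, and 53.2% and 57.9% of the longer-list peaks of 1 library. Density was 7.62 and 9.18 per kb, against 15.1 and 15.5 per kb, and the median length was 8 bp, against 12 and 11 bp. Of the footprints in members 33.7% and 27.5% overlapped a footprint of the other library, against 69.2% and 65.6% in the main list. By locus, 4296 (54.2%) held a footprint in both libraries, 2795 (35.2%) in 1 and 841 (10.6%) in neither, and 2597 held footprints of both libraries that overlapped. Members with a footprint were stronger, with median signals of 0.626 and 0.568, against 0.474 and 0.411 without one, and wider, at 150 and 152 bp, against 115 and 110 bp. At equal signal, 70.5% and 79.0% of the members held a footprint, against 72.2% and 83.8% of main-list peaks. Density there was still lower in the members, at 7.55 and 9.53 per kb, against 9.08 and 12.3 per kb.

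Consensus sequences were searched on both strands in the central 150 bp of each peak, and in windows of the same length 2000 bp away that touched no listed peak. The windows beside the members had a median GC content of 45.3% in each library, against 54.1% and 54.2% over the members' whole peaks. How far this gap in composition shapes the differences from these windows was not tested. A match describes letters and not a bound factor. The consensus of CTCF lay in 2.97% and 2.73% of the members, against 8.27% and 7.93% of the main list and 0.03% of the windows beside the members in each library. The SP/KLF box GGGGCGGGG, typical of promoters, lay in 2.43% and 2.25%, against 7.71% and 7.17%, and the ETS sequence CCGGAAGT (ETS 1 in the plot), also of promoters, in 0.58% and 0.56%, against 2.62% and 2.65%. The NRF1 consensus, also of promoters, lay in 0.27% and 0.26%, against 3.35% and 3.32%. These 4 were rarer in the members than in the main list in both libraries.

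Several short sequences of the kind bound by lymphocyte factors were commoner in the members than in the main list, but the excess was not particular to them. The AP-1 consensus TGANTCA lay in 4.49% and 4.73% of the members, against 3.47% and 3.48% of the main list, with 4.49% and 4.58% beside the members. The KLF sequence CCACACCC lay in 2.84% and 2.65%, against 2.26% and 2.34%, with 1.43% and 1.44% beside the members. The ETS sequence ACAGGAAG (ETS 2), of the kind bound by Ets1, lay in 5.50% and 5.45% of the members, against 4.89% and 5.01% of the main list and 1.39% and 1.48% of the windows beside the members. GAGGAAGT, of the kind bound by PU.1, lay in 3.19% and 3.41%, against 2.75% and 2.78%, with 0.90% and 0.84% beside the members. The RUNX core TGTGGT lay in 16.6% and 16.3%, against 12.9% in each library, with 11.9% and 11.6% beside the members, and the longer TGTGGTTT, which contains it, in 2.55%, against 2.19% and 2.20%, with 1.22% and 1.18%. The E-boxes CAGCTG (E-box 1) and CAGGTG (E-box 2), of the kind bound by E proteins in thymocytes, lay in 15.5% and 15.4% and in 20.6% and 21.2%, against 13.8% and 13.9% and 19.7% and 19.8%, with 7.25% and 7.23% and 10.7% and 10.5% beside the members. Others were rarer in the members than beside them, or about as frequent. The GATA sequence AGATAA lay in 4.80% and 4.42% of the members, against 3.02% and 3.11% of the main list, with 8.10% and 8.19% beside the members. The sequence TGGGAAT, of the kind bound by Ikaros, lay in 2.23% and 2.19%, against 1.62% and 1.58%, with 3.29% and 3.28%, and the IRF consensus in 1.46% and 1.53%, against 1.30% and 1.36%, with 2.12% and 2.10%. ATCAAAG, of the kind bound by TCF and LEF factors, lay in 2.38% and 2.48%, against 1.84% and 1.89%, with 2.32% and 2.30%. By position, GAGGAAGT, these last 4, the AP-1 consensus and CCACACCC were not counted. Outside promoters the RUNX core lay in 18.3% and 18.1% of the members, against 18.2% in each library of the main list. There TGTGGTTT lay in 2.94% and 2.96%, against 3.39% and 3.42%, and ACAGGAAG in 6.26% and 6.17%, against 7.04% and 7.16%. CAGCTG lay in 16.7% and 16.5%, against 17.8% and 18.0%, and CAGGTG in 22.2% and 22.8%, against 25.4% and 25.3%. Within promoters the RUNX core lay in 9.98% and 8.78% of the members, against 5.86% and 5.82%. TGTGGTTT lay there in 0.95% and 0.88%, against 0.61% and 0.58%, and CAGGTG in 13.8% and 14.9%, against 12.1% and 12.4%. The CTCF gap remained outside promoters, at 3.58% and 3.26%, against 13.0% and 12.6%.

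**Figure D4:**
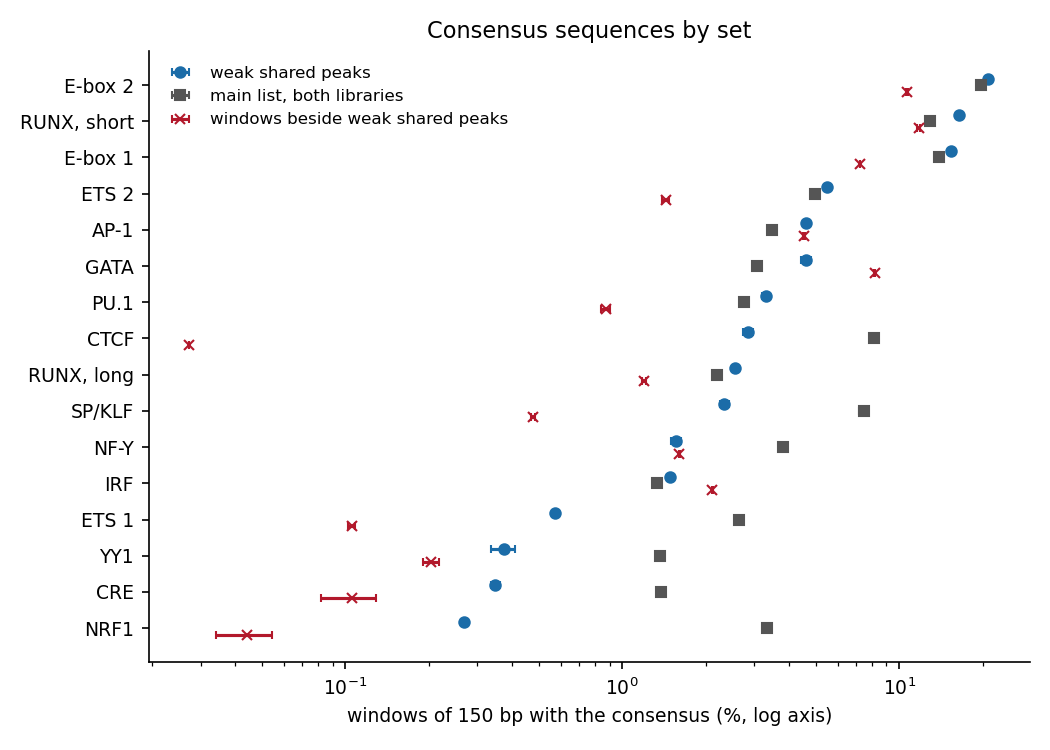
Share of central 150 bp windows that hold each of 16 consensus sequences, on a log axis, for the weak shared peaks (circles), the main-list peaks of both libraries (squares) and windows 2000 bp from the weak shared peaks (crosses). Points are means of the 2 libraries and bars run to their 2 values; CTCF lies at 2.97% and 2.73% in the weak shared peaks and at 8.27% and 7.93% in the main list.

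Members with the CTCF consensus were few and mostly lay alone. They numbered 239 in replicate 1 and 219 in replicate 2, and 7.11% and 7.76% of them lay within 1 kb of a main-list peak, against 40.5% and 40.6% of all members. Promoters held 3.35% and 4.11% of them and intergenic DNA 49.4% and 50.7%. A footprint shared by the libraries lay in 56.5% and 58.4%, against 30.4% of the other members in each library. Their median signal was 0.600 in replicate 1 and 0.450 in replicate 2, while that of the other members was 0.573 and 0.528. By locus, 202 of 241 (83.8%) lay on the replicate 1 side of the median ratio, with a median log2 ratio of -0.24, against 48.9% of the other loci. The libraries of the group therefore differed in the signal of sites with this sequence.

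The match lay in a footprint of both libraries in 90 loci. The 3 strongest were those near Pik3ip1, which encodes an inhibitor of PI3 kinase in T cells (signals of 2.15 in replicate 1 and 1.67 in replicate 2), Smim24 (1.86 and 1.54) and Vgll4, a partner of TEAD factors (1.78 and 1.36). Each was higher in replicate 1, and in each the capitals of the printed sequence sit inside footprints of nearly the same ends in both libraries, for example from 114928629 to 114928650 in replicate 1 and from 114928629 to 114928649 in replicate 2 at Vgll4. In the Wnt1 promoter the capitals hold another such match, on the minus strand from 98789667 to 98789680. The first and longer run of capitals upstream of E2f2 holds a near match on the minus strand, which departs from the CTCF consensus at 1 letter. Near matches were not counted, so the numbers given for this consensus leave such sequences out. Upstream of E2f2, the second run of capitals ends in the E-box CAGCTG, and at the nearest Thy1 locus the capitals end in ACCACA, the RUNX core read on the minus strand, at 44031329 to 44031334. Footprints of both libraries held CAGGTG in 106 loci, the RUNX core in 103, CAGCTG in 65 and ACAGGAAG in 25. Of the shared footprints in members, 3.36% and 3.35% held CAGGTG, against 2.86% and 2.85% of those in the main list. The RUNX core lay in 3.46% and 3.35%, against 2.05% and 2.07%, and CAGCTG in 2.02% and 2.44%, against 1.81% and 1.89%. ACAGGAAG lay in 0.82% and 0.68%, against 0.29% and 0.31%. The CTCF consensus was rarer, at 2.91% and 2.44%, against 3.44% and 3.33%, as was the SP/KLF box, at 0.98% and 0.94%, against 3.99% and 3.97%. These shares were not split into promoters and other positions. How far they follow the members' lower promoter share was not tested.

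Promoters with no stronger peak formed a small group. Of 20807 autosomal protein-coding genes, 366 (1.76%) had a member within 1 kb of a start site in both libraries and no main-list peak there in either. Of the 8793 genes without a main-list promoter peak, these were 4.16%, while 11398 genes (54.8%) had a main-list promoter peak in both libraries and 7559 (36.3%) had no listed peak there. Another 1218 genes had a member beside a main-list promoter peak. The 366 genes rested on 355 loci, so that some share a locus, and 243 (66.4%) of their peaks lay within 200 bp of a start site. Their mean signal over both libraries had a median of 0.453 and ran from 0.207 to 2.16, and 182 held a footprint in both. With a q-value of 0.01 or lower required in both libraries, 174 genes were left.

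The highest such promoter was that of Tnf, the inflammatory cytokine, at 1.68 in replicate 1 and 2.64 in replicate 2, with its peak at -51 bp from the start site. Cnr2, the cannabinoid receptor of immune cells, followed with 1.27 and 1.37, and Wnt1, a secreted ligand of development, with 1.49 and 1.05. Parp10, an ADP-ribosyltransferase, had 1.34 and 1.12 and Cavin1, a coat protein of caveolae, had 1.05 and 1.34. The potassium channel family gene Kcnk7 had 1.13 and 1.18, A630095N17Rik had 1.20 and 1.06, and Cnih2, a partner of glutamate receptors, had 1.15 and 1.12. Nat14, of the acetyltransferase family, had 1.10 and 1.15, and Large2, a glycosyltransferase, had 1.32 and 0.900. Neither library was higher throughout, as 5 of these 10 were higher in each.

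Of the genes in the T cell and B cell lists, 3 B cell genes were in this group. None of 31 T cell and thymocyte genes had only a member at its promoter, since 30 had a main-list peak in at least 1 library and at Trat1, whose product is a partner of the antigen receptor of T cells, none was listed, so that only 1 gene of this list could have been in the group. Of the 6 B cell genes without a main-list promoter peak 3 had a member, against 4.16% of all genes without one. These were Cd79b, a signalling chain of the B cell receptor (0.770 and 1.28), the inhibitory receptor gene Cd22 (0.573 and 0.568) and Fcrla, an Fc receptor-like gene of B cells (0.465 and 0.639), whose peak lay at -972 bp from its start site. The Cd22 peak lay 10 bp from the start site, and the capitals of its sequence, CCACGCCCCCTT, mark a footprint found in both libraries.

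The lists of other cells gave 6 further genes. Tbx21, which encodes the T-bet factor of effector T and natural killer cells, had 1.02 in replicate 1 and 0.685 in replicate 2, and Lyz2, the lysozyme of macrophages and neutrophils, had 0.421 and 0.528. Dclk1, a kinase gene that marks tuft cells, had 0.358 and 0.404 and came from the list of mimetic cells, the thymic epithelial cells that resemble peripheral tissues. From the neuron list came the tubulin gene Tubb3, at 1.22 and 0.907, and the synaptic gene Snap25, at 0.331 and 0.274, and from the muscle list the troponin gene Tnnt3, at 0.662 and 0.659. By list, 1 of 8 regulatory T and NKT cell genes without a main-list promoter peak had only a member, 1 of 13 mimetic, 1 of 17 myeloid, 2 of 9 neuronal and 1 of 9 muscle genes. The lists of thymic epithelium (13 such genes), fibroblasts (10), adipocytes (10), endothelium (8), erythroid cells (6), hepatocytes (13), olfactory and taste receptors (8), T cell ageing and exhaustion (6), senescence and cell cycle (1) and housekeeping (0) held none. Over all 269 listed genes 9 of 135 without a main-list promoter peak had only a member (6.67%).

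**Figure D5:**
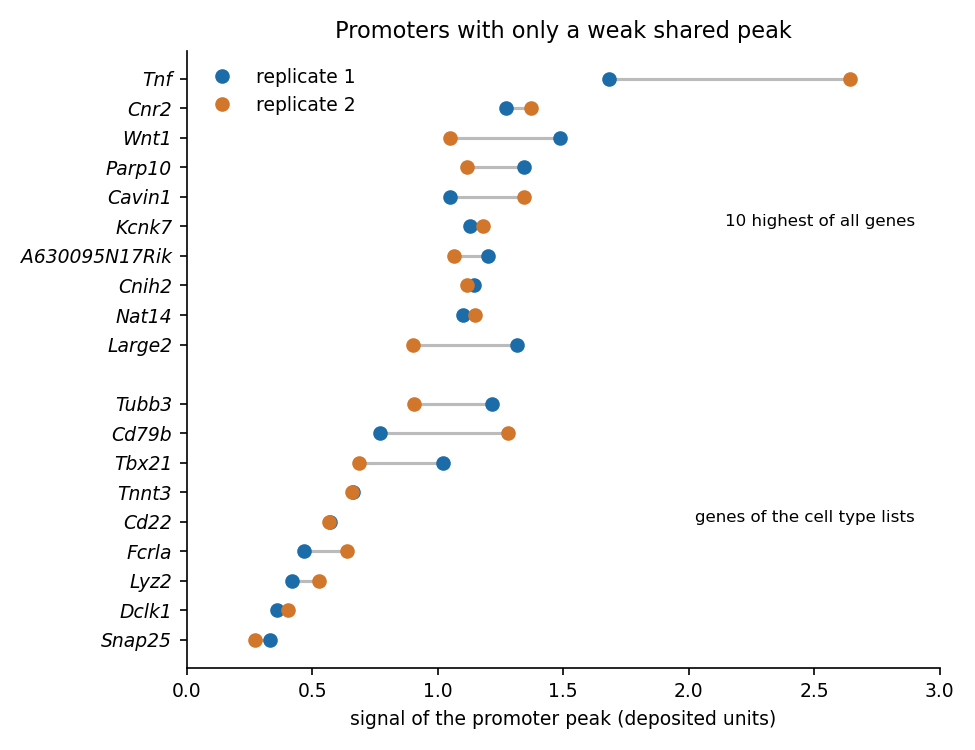
Signal of the promoter peak in replicate 1 (blue) and replicate 2 (orange) for the 10 genes of highest mean signal among the 366 whose promoter held only a weak shared peak (top) and for the 9 such genes of the cell type lists (bottom), with a grey line between the libraries. Tnf lies highest, at 1.68 and 2.64, and Snap25 lowest, at 0.331 and 0.274.

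Of the 17 lists, that of T cell genes had a member locus nearby most often, and its genes also had many main-list peaks. Of all autosomal protein-coding genes, 5689 (27.3%) had at least 1 locus in the gene or 10 kb on each side, against 16.9% in the gene alone and 49.2% with 50 kb. Of T cell and thymocyte genes 20 of 31 (64.5%) did, with 34 loci. Set against the mean number of main-list peaks of both libraries, the members came to 10.9 loci per 100, against 13.8 over all genes. Main-list counts differed between the libraries, for example 7 in replicate 1 and 44 in replicate 2 at Tcf7, and 13 and 8 at Satb1. The ratio was not computed per library, so its direction against all genes is not settled. A locus lay near 7 of 15 B cell genes (46.7%), at 28.6 loci per 100 main-list peaks, and near 7 of 14 genes of T cell ageing and exhaustion, at 37.7. For myeloid and dendritic genes the values were 8 of 24 (33.3%) and 21.1 per 100, and for endothelium 5 of 14 (35.7%) and 19.8 per 100. Thymic epithelial genes had 2 of 20 and 6.35 per 100, fibroblast genes 2 of 16 (12.5%) and 10.7 per 100, and hepatocyte genes 1 of 14 (7.14%) and 9.52 per 100. In the other lists a locus lay near 4 of 13 neuronal genes (23.2 per 100), 4 of 14 muscle (16.7), 5 of 20 mimetic (15.6) and 5 of 14 adipocyte genes (14.1). Housekeeping genes had 5 of 13 (12.1 per 100), erythroid genes 3 of 10 (12) and regulatory T and NKT cell genes 3 of 16 (8.33). Olfactory and taste receptor genes had 1 of 10 (6.45 per 100) and senescence and cell cycle genes 2 of 15 (3.92).

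Among T cell genes the highest number was 3 loci, reached by Satb1, Lef1, Tox and Runx3, which encode a chromatin organiser and factors of T cell development and are named after their counts were seen. At Satb1 the signals were 1.11 and 1.00 in an exon, 0.895 and 0.835 in the promoter and 0.975 and 0.985 in an intron. At Lef1 the intronic loci had 1.09 and 1.06, 0.966 and 1.13, and 0.644 and 0.639. Those of Tox were weaker, from 0.358 to 0.555. At Pdcd1, which encodes the inhibitory receptor PD-1 and was also chosen after its count was seen, 3 loci had signals from 0.573 to 0.809, and the nearest lay 1207 bp upstream of the start site. Around Cd79b, besides the promoter, 2 loci had 0.716 and 0.933 and 0.734 and 1.06, and all 3 were higher in replicate 2.

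The genes with the most loci were long. Gm20388, a gene model that spans 4455 kb with its flanks, had 41 and the model of the fibroblast growth factor receptor gene Fgfr2, at 2981 kb, had 16, beside 288 and 278 and 84 and 74 main-list peaks. Shorter were Pitpnm2, a lipid transfer gene (9 loci over 151 kb), and Gse1 (9 over 373 kb). The guidance gene Ntn1 and the neurotrophin receptor gene Ntrk3 had 8 each. With 7 came the histone demethylase family gene Jmjd1c, the Rab regulator gene Tbc1d22a, the zinc finger gene Jazf1 and Atxn1, and Lpp, Wwox and Pde4d had as many. Jmjd1c had 7 loci beside 9 and 6 main-list peaks. Within 500 bp of antigen receptor segments, 11 of 144 T cell receptor variable segments had a locus and 41 a main-list peak in both libraries. Of 218 immunoglobulin variable segments 6 had a locus and 22 such a main-list peak, and of 70 T cell receptor joining segments 0 and 1. Of 13 immunoglobulin constant genes Ighm had a locus, and none had such a main-list peak.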

How the data were processed

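DNase-seq of thymus was analysed in 2 libraries of 1 group. The authors deposited, for each library, 2 peak lists with 1 signal value per peak, a list of base runs with a q-value (false discovery rate, up to 0.05) and a list of footprints that all carry the constant 0.01, so only their positions were used. Per the file notes all are on mm10 and come from each library's own alignments. The aligner, the peak caller with its thresholds and the signal's scale were not given in the sources used here, and depth is unknown. Every signal value of replicate 1 and 99.93% of those of replicate 2 were whole multiples of 0.00895 and 0.00652 within 0.1 steps.

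The peak list with fewer rows was called the main list. Overlaps, distances and composition were computed with Python 3.11.15, numpy 2.4.6, pandas 2.3.3 and bedtools 2.31.1, tested on simulated intervals. Genes came from the GENCODE vM21 basic annotation and sequence from the RefSeq GRCm38.p6 assembly, which matches mm10 in chromosome names and lengths. Promoters reach 1000 bp from a start site. Coordinates are counted from 1. Composition like that of CpG islands means a GC content over 50% and a CpG ratio over 0.6 in the peak. Footprints were extended by 5 bp for the consensus search. The 17 gene lists (273 of 284 entries found) and 22 consensus sequences, like the members, were chosen with earlier results of these data known. Named genes are those of list promoters with only a member, the 10 highest such promoters, the 10 genes with most loci, the 10 strongest loci, the 3 most different in each direction and the 5 of lowest q-value. No test over samples was made. Alternatives changed the overlap, promoter width, start sites, q-value, flank, window and footprint rules.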

Additional observations from a re-analysis of the deposited data

How the results depend on the processing

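No paired analysis was possible because there is 1 group and no test between groups. Taking values of 1 library at a time gave 8031 to 8037 member peaks, a median signal of 0.528 to 0.573, a promoter share of 19.70% to 19.71%, a footprint share of 68.1% to 74.7% and 367 promoters in either case, against 366. The member rule still used both libraries here. Its overlap makes the peak count, the promoter share and the number of promoters nearly equal in advance. Their likeness therefore cannot show how far they depend on 1 library. Stricter rules shrank the set: a q-value of 0.01 or lower in both libraries left 3130.5 peaks per library on average (main value 8034) and 174 promoters with only a member, and the upper 50% of signal in both libraries left 3402 loci. Members at least 1000 bp from main-list peaks, a rule chosen after seeing the data for the count, were 4706 loci, with a median signal of 0.516 and a promoter share of 9.80%, against 0.551 and 19.7%. The promoter share was 19.3% with an overlap of 50% of the shorter peak, 10.04% within 500 bp, 30.4% within 2500 bp and 24.6% with the start sites of all genes. The median gap to a main-list peak was 2771 bp against the same library alone, and 2161 bp against either. The CTCF share was 2.50% in 100 bp, against 2.85%. Genes with a locus were 16.9% without flanks and 49.2% with 50 kb, against 27.3%. Depth is unknown; the median member's 64.0 and 81.0 steps limit how finely libraries or members can be compared.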

Other observations

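The excess of the CTCF consensus in replicate 1 was not limited to the loci found in both libraries. Of longer-list peaks that overlapped no main-list peak and no such peak of the other library, 593 of replicate 1 (4.12%) held the consensus in their central 150 bp. In replicate 2 there were 72 (0.47%). The share rose with signal in replicate 1, at 2.61%, 4.14%, 4.45% and 5.29% from the weakest to the strongest of 4 equal groups, and was 0.40%, 0.79%, 0.34% and 0.37% in replicate 2. Of main-list peaks without a main-list partner in the other library, 12.5% of 10098 in replicate 1 and 0.68% of 9452 in replicate 2 held it. The other consensus sequences did not show a gap of this size, for example CAGCTG at 11.5% and 14.8% of the longer-list peaks of 1 library. The cause was not tested.

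Among 6 gene families set by symbol, the share of promoters with only a weak shared peak was 7.61% of 92 potassium channel genes (Kcn), 2.08% of 385 zinc finger genes (Zfp), 1.96% of 358 solute carrier genes (Slc), 1.19% of 1765 predicted genes (Gm or Rik), 0.62% of 1128 olfactory receptor genes (Olfr) and 0 of 329 vomeronasal receptor genes (Vmn), against 1.76% of all genes. The families were chosen after the members were known, and these counts were not tested.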
